A study of Mus musculus with 7 samples.

Results

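Axon guidance ligands and receptors were examined in High RFP cells sorted from embryonic mouse neocortex. The genes were chosen by symbol among the protein-coding genes of the count table, covering the semaphorins, plexins, neuropilins, ephrins, Eph receptors, Slits, Robos, netrins, *Dcc* and the Unc5 receptors. They numbered 68 of 38124 rows, of which 36345 were matched to the annotation and 21173 were protein-coding. These were 20 semaphorins, 11 plexins and neuropilins, 14 Eph receptors, 8 ephrins, 7 Slits and Robos, and 8 netrins and netrin receptors. *Ntn3* was not analysed here.

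All embryos were heterozygous for Tis21-CreERT2, in which the first exon of *Tis21* is replaced by a tamoxifen-activated Cre, and all mothers received tamoxifen. The neocortex was electroporated in utero at E13.5 and collected at E15.5, 48 h later. The control construct (3 libraries, replicates 1, 2 and 4) carries a floxed membrane GFP followed by nuclear RFP under a CAG promoter. The conditional Sox9 expression construct (4 libraries, replicates 1 to 4) carries *Sox9* in front of the nuclear RFP, so that Cre in progenitors committed to basal progenitor production, and in their progeny, turns both on. Cells with the highest RFP fluorescence were sorted, and cDNA was made from poly-dT primers and amplified by PCR without molecular identifiers. The methods describe pooling the cortices of several embryos and mothers for each sort, whereas the legends count single neocortices. Values are in CPM, in which counts were brought to one library size by TMM factors that correct for composition, and each set of values lists the control replicates 1, 2 and 4 and then the replicates 1 to 4 labelled Sox9.

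Axon guidance cues are secreted or membrane-bound proteins that attract or repel growing axons and migrating cells. Semaphorins act through plexins, for most secreted semaphorins with a neuropilin as co-receptor, ephrins act through Eph receptor tyrosine kinases and can signal back into the cell that carries them, Slits repel through Robos, and netrins attract through *Dcc* or repel with Unc5 receptors. In the embryonic neocortex these molecules are known from the migration of newborn neurons and from the routing of callosal, thalamocortical and corticofugal axons.

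The mRNA of the targeted gene showed no rise with the *Sox9* label. *Sox9* (chromosome 11, 112782224 to 112787760, plus strand of GRCm38) had 362, 1026 and 668 counts in the controls and 370, 435, 277 and 177 counts in the libraries labelled Sox9, or 63.9 ± 27.5 CPM (SD, n = 3) in the controls and 40.002 ± 8.33 CPM (SD, n = 4) in the libraries labelled Sox9, with a log2 fold change of -0.68 ± 0.25 (SE, edgeR adjusted p = 0.0493). Whether transcripts of the construct are among these counts is not given in the sources used here, and the groups are named by their labels. Libraries held 4429704 to 12907778 counts on genes. Summed markers of newborn projection neurons lay at 13919 to 17367 CPM in the controls and 12810 to 14933 CPM in the libraries labelled Sox9. Radial glia markers summed to between 551 and 1071 CPM in the controls and between 263 and 403 CPM in the libraries labelled Sox9 (4 of 8 genes called lower), and intermediate progenitor markers to between 213 and 246 CPM and between 128 and 159 CPM (2 of 6 called lower). Markers of oligodendrocyte precursors lay between 0.814 and 1.56 CPM in the controls and between 9.73 and 27.7 CPM in the libraries labelled Sox9 (4 of the 5 tested called higher), with *Olig2* at 0 in 2 of 3 control libraries. Endothelial markers summed to between 6.12 and 15.6 CPM and between 20.1 and 53.9 CPM (2 of 8 called higher). Mural and meningeal markers lay between 9.84 and 11.6 CPM in the controls and between 16.5 and 31.6 CPM in the libraries labelled Sox9, interneuron markers between 4.26 and 4.78 CPM and between 7.94 and 12.8 CPM, and Cajal-Retzius markers between 6.26 and 11.5 CPM and between 12.5 and 22.8 CPM. Erythroid markers (2.10 to 24.5 CPM and 13.3 to 93.2 CPM) and microglia markers (10.4 to 38.4 CPM and 13.8 to 66.8 CPM) overlapped between the groups. Chemoreceptor genes, which these cells should lack, summed to 113 to 155 CPM in the controls and 342 to 481 CPM in the libraries labelled Sox9, and 13 of the 99 tested were called higher (13.1%) and 0 lower. Over all genes tested 11.3% were called higher and 3.43% lower. Of those with an average log2 CPM under 3, 21.8% were called higher and 0.62% lower. Of those with an average of 6 or more, 0.6% were called higher and 8.05% lower. The part of these shifts in the results on guidance genes was not tested, and in bulk samples fewer cells of a type and less RNA per cell cannot be told apart.

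Per kilobase of exon and averaged over all libraries, the 10 most abundant guidance transcripts were those of receptors, except for the ligands *Efnb2* and *Sema4b*. On this scale, in CPM per exonic kilobase, *Nrp1*, the co-receptor of *Sema3a*, stood at 89.1 ± 18.7 (mean ± SD over all 7 libraries). Its lowest library was above the highest library of every other member. Next in level were *Epha3* at 38.5 ± 8.28 and *Epha4* at 25.5 ± 7.2001, both receptors of ephrin-A ligands, and *Plxna2* at 25.1 ± 3.28, a receptor that pairs with neuropilins and also binds transmembrane semaphorins. *Robo2*, a Slit receptor, followed at 23.8 ± 3.99. The highest ligand was *Efnb2*, a transmembrane ephrin, at 21.3 ± 3.96 CPM per exonic kilobase. Behind it came *Plxna3* at 14.9 ± 1.401, the transmembrane semaphorin *Sema4b* at 14.6 ± 2.35, *Epha7* at 11.01 ± 2.65 and the plexin *Plxnb2* at 8.61 ± 1.502. From *Epha3* down to *Plxnb2*, no neighbours in this order were separated by their ranges over the libraries. Within each group the order differed in part. In the controls *Unc5d* was among the 10 in place of *Plxnb2*, at 10.7 ± 1.75 CPM per exonic kilobase (SD, n = 3). In the libraries labelled Sox9, *Sema3c* was among the 10 in place of *Plxnb2*, at 9.97 ± 1.56 (SD, n = 4), which made 3 ligands among the 10. There *Epha4* stood behind *Plxna2* and *Robo2*, at 20.7 ± 4.21 (SD, n = 4), while in the controls it stood ahead of both, at 31.8 ± 4.88 (SD, n = 3). At the low end, 6 members did not pass the filter on low counts, namely *Epha2*, *Epha8*, *Sema3b*, *Sema3g*, *Robo4* and *Ntn5*. The deposited counts do not say whether intronic reads were included. Dividing by the whole gene span in place of exons kept 6 of these 10 genes among the highest 10, put *Plxna3* first in place of *Nrp1* and left 5 of the 10 as ligands (*Efnb3*, *Efnb2*, *Efna4*, *Sema4b* and *Efnb1*).

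**Figure D1:**
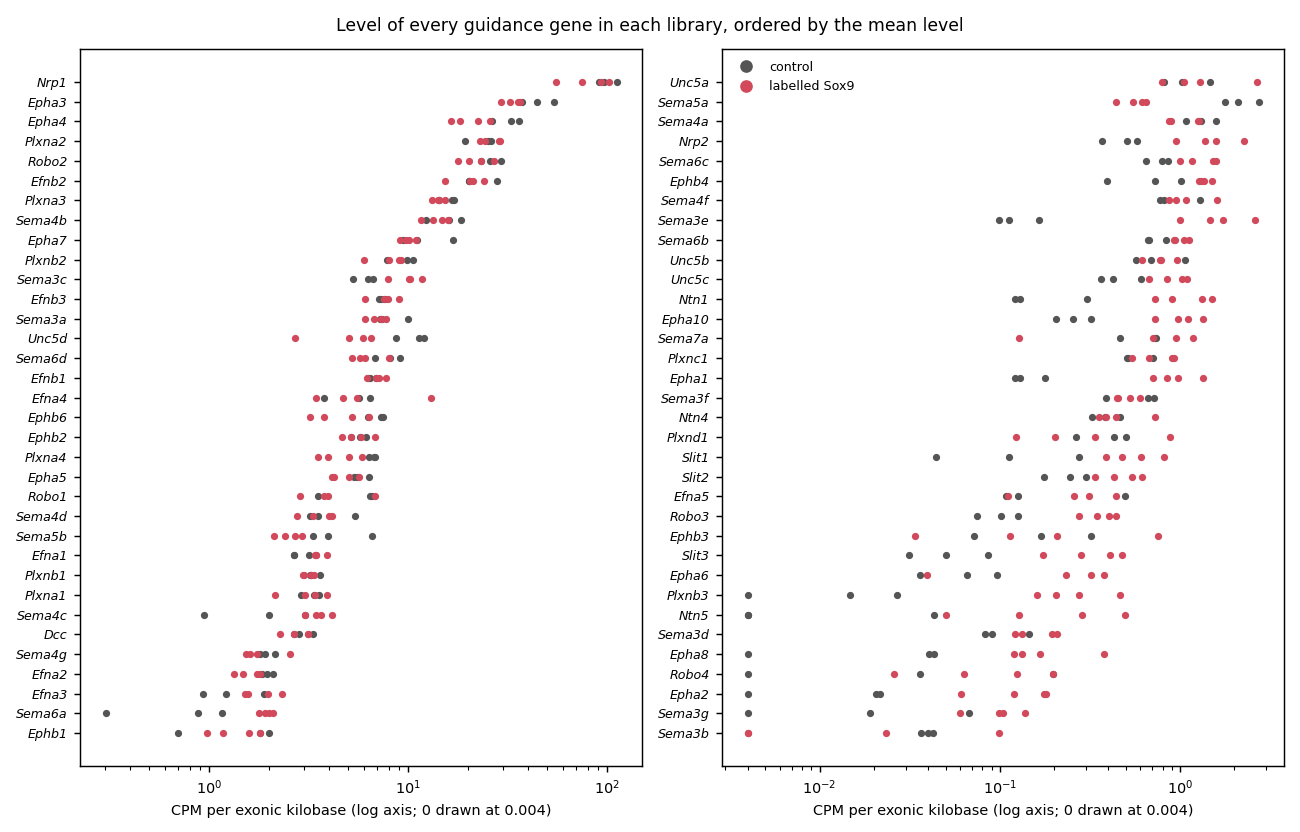
Level of each of the 68 guidance genes in each library, in CPM per exonic kilobase on a log axis, with a count of 0 drawn at the left edge; dark points are control libraries and red points libraries labelled Sox9. *Nrp1* lies above all others, with a mean of 89.1, and no neighbours among the next 9 are separated.

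Between the libraries labelled Sox9 and the controls, 14 of the 62 guidance genes tested were called at an adjusted p under 0.01, 10 higher and 4 lower. Over all 16522 genes tested, 14.7% were called, 11.3% higher and 3.43% lower, against 22.6%, 16.1% and 6.45% of the guidance genes. The genes called higher were *Plxnb3*, *Sema3e*, *Epha1*, *Ntn1*, *Slit3*, *Epha10*, *Robo3*, *Nrp2*, *Sema6a* and *Sema3c*, and those called lower were *Sema5a*, *Unc5d*, *Sema5b* and *Epha4*. Ligands and receptors took equal parts, with 5 higher and 2 lower among 31 tested of each. The median log2 fold change over the guidance genes was 0.070, against -0.0031 over all genes. Groups did not overlap in CPM for 25 guidance genes (40.3%), 18 higher and 7 lower, against 39.3% of all genes (22.9% higher and 16.4% lower), so separation of the groups alone was about as common among guidance genes as elsewhere. With cyclic loess, a normalization that also removes trends with the level of a gene, 5 were called higher and 1 lower, against 3.92% of all genes (2.2% higher and 1.72% lower), and these were *Sema3e*, *Nrp2*, *Ntn1*, *Epha10*, *Sema3c* and *Sema5a*. DESeq2 called 13 higher and 6 lower, all 14 among them, against 19.4% of all genes (11.5% higher and 7.9% lower). *Sema3e*, *Sema5a*, *Nrp2* and *Epha10* were called in every alternative that tested them.

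**Figure D2:**
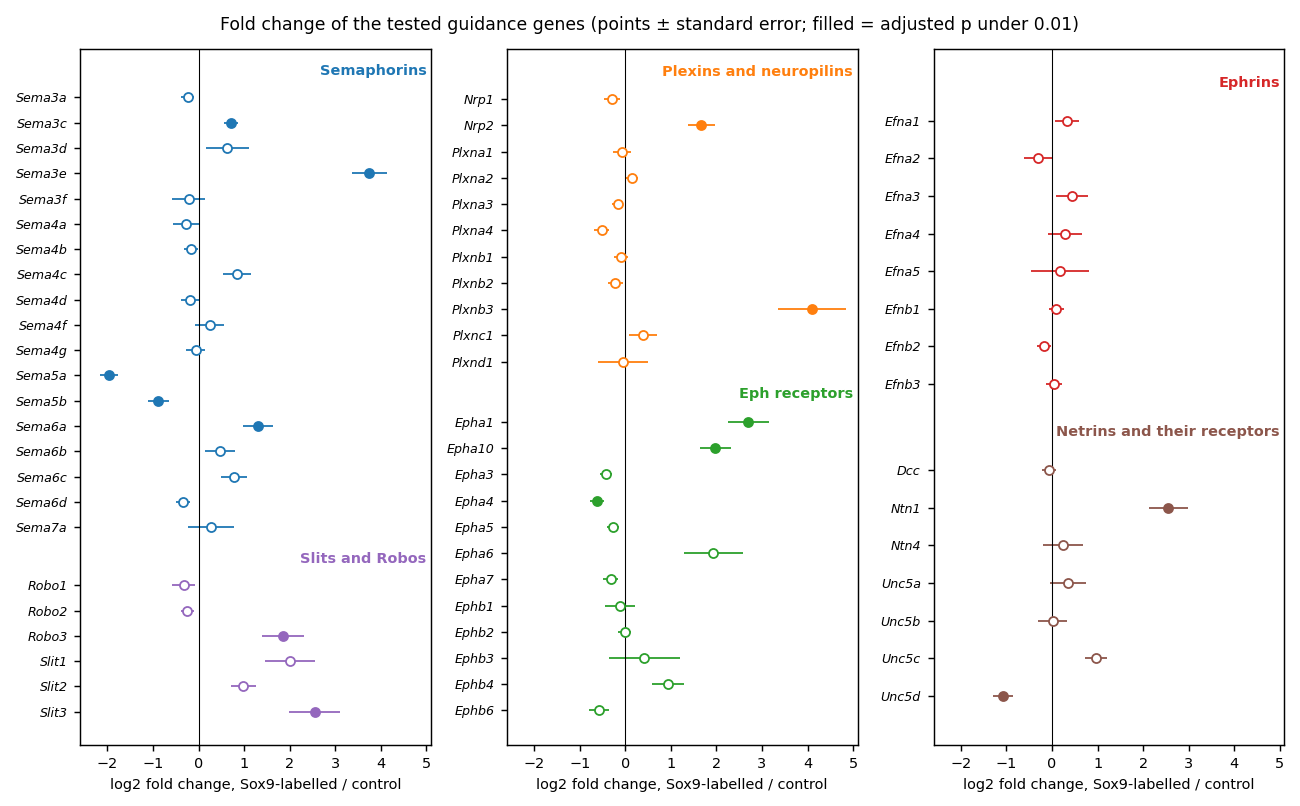
Log2 fold change (libraries labelled Sox9 over control) of the 62 guidance genes tested, by family, with standard errors from edgeR; filled points have an adjusted p under 0.01. Filled points on the right are the 10 genes called higher and those on the left the 4 called lower, and no ephrin is filled.

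Among the semaphorins, 3 of 18 tested rose and 2 fell. *Sema3e*, a secreted semaphorin that binds *Plxnd1* without a neuropilin, had 1.53, 1.04 and 0.915 CPM in the controls and 24.2, 16.1, 9.28 and 13.6 CPM in the libraries labelled Sox9. Every library labelled Sox9 lay above every control. The log2 fold change of 3.75 ± 0.38 (SE, edgeR adjusted p = 3.99e-05) was exceeded among the 62 members tested only by that of *Plxnb3*, which had 3 counts in all controls together. *Sema5a*, a transmembrane semaphorin with thrombospondin repeats, went the other way, with 33.4, 51.1 and 39.2 CPM in the controls and 8.24, 11.5, 10.3 and 12.2 CPM in the libraries labelled Sox9. The lowest control was well above the highest library labelled Sox9, and the log2 fold change of -1.97 ± 0.20 (SE, edgeR adjusted p = 3.99e-05) was the largest fall among the members tested.

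*Sema3c*, a secreted ligand of both neuropilins that is known to attract cortical axons, had 37.7, 47.4 and 44.7 CPM in the controls and 72.5, 71.7, 56.7 and 83.9 CPM in the libraries labelled Sox9. The shift was small but the groups did not overlap (log2 fold change 0.72, SE 0.15, edgeR adjusted p = 0.00416). Its adjusted p was above 0.01 without Sox9 replicate 2 (0.0105), without control replicate 1 (0.0209) and without control replicate 4 (0.0109). *Sema6a*, a transmembrane ligand of *Plxna2* and *Plxna4*, had 10.2, 7.73 and 2.64 CPM in the controls and 18.3, 16.8, 17.6 and 15.5 CPM in the libraries labelled Sox9. Among these, control replicate 4 was lowest by a wide margin. Its log2 fold change of 1.31 ± 0.33 (SE, edgeR adjusted p = 0.009103) lost the call when any one library other than control replicate 1 was left out, with adjusted p between 0.0132 and 0.0233, and the log2 fold change without control replicate 4 was 0.95. *Sema5b*, the close relative of *Sema5a*, had 23.6, 46.7 and 28.1 CPM in the controls and 19.1, 16.9, 14.98 and 20.8 CPM in the libraries labelled Sox9. Control replicate 2 was highest. The log2 fold change of -0.88 ± 0.22 (SE, edgeR adjusted p = 0.00976) lost its call without any one library other than control replicate 1, with adjusted p between 0.0144 and 0.0850, and was -0.53 without control replicate 2. The other 13 tested semaphorins were not called, and their log2 fold changes ran from -0.35 for *Sema6d* to 0.85 for *Sema4c*, a ligand of B-class plexins, of whose exonic length 7.3% is overlapped by a transcript on the opposite strand.

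The genes *Sema3d*, *Sema3a*, *Sema3e* and *Sema3c* lie on the plus strand of the same stretch of chromosome 5, in that order, at 12383385 to 12588948, 13125414 to 13602565, 14025276 to 14256689 and 17574281 to 17730268 (GRCm38). Those at its end, *Sema3e* and *Sema3c*, were called higher. *Sema3a*, the chemorepellent that acts through *Nrp1*, had 114 ± 21.5 CPM (SD, n = 3) in the controls and 96.5 ± 9.91 CPM (SD, n = 4) in the libraries labelled Sox9, with a log2 fold change of -0.24 (edgeR adjusted p = 0.204) and 0.0098 with cyclic loess. *Sema3d* lay at 0.912 ± 0.288 CPM (SD, n = 3) in the controls and 1.41 ± 0.374 CPM (SD, n = 4) in the libraries labelled Sox9. The fold change of *Sema3d* on the log2 scale was 0.63 with TMM and -0.73 with cyclic loess, neither called.

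The promoters of these genes are shown because the series concerns a SOX factor, a family that binds short motifs of the type ACAAAG. The windows run from 250 bases before to 50 after the start (RefSeq, GRCm38.p6). Capitals mark any match to the motifs ACAATG or AACAAT, or to the motif ACAAAG, on either strand, and overlapping matches share their capitals. *Sema3e* and *Sema5a* are given as the genes with the smallest p among those called higher and lower, *Sema3c* and *Plxnb3* as the only called genes with a match. *Sema3e* is at chr5:14025026-14025325, plus strand, *Sema5a* at chr15:32244563-32244862, plus strand, *Sema3c* at chr5:17574566-17574865, plus strand and *Plxnb3* at chrX:73756853-73757152, plus strand.
Sema3e: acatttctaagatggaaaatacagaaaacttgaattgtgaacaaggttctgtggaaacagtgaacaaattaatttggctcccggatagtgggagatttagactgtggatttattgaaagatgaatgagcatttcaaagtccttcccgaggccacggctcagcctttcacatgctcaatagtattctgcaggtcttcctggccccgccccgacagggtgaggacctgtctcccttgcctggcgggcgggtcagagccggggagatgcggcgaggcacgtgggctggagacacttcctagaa
Sema5a: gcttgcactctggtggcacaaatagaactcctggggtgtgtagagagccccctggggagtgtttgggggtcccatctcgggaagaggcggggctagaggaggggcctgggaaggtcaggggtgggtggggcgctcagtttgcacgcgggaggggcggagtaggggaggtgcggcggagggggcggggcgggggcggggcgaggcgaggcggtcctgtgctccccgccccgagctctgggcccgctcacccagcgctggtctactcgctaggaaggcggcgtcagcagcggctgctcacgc
Sema3c: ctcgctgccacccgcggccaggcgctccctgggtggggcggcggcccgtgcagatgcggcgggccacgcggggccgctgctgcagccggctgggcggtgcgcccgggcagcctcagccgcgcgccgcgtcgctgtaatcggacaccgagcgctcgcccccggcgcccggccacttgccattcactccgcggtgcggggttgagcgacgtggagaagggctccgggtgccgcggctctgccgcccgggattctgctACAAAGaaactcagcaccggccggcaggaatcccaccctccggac
Plxnb3: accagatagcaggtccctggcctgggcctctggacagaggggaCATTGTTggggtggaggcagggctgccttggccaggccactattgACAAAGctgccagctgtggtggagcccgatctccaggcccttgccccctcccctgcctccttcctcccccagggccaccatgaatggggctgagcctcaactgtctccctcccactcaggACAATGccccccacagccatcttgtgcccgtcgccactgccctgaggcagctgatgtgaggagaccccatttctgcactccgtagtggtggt

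The *Sema3c* window held 1 ACAAAG, that of *Plxnb3* held 2 ACAATG, 1 AACAAT and 1 ACAAAG, with 1 of the ACAATG overlapping the AACAAT, and those of *Sema3e* and *Sema5a* held none of them. Over 74 windows of 58 guidance genes, 10.8% held ACAATG, 4.05% AACAAT and 13.51% ACAAAG, against 12.6%, 10.7% and 18.7% of 32851 promoters of the same length. Any of the 3 was found in 21.6% and 33.2%. Of the 11 called genes with a window, 2 held a match. Guidance promoters were richer in GC, with a median of 64.2% against 52.7%, and held a median of 19.5 CpG sites against 7. No window was given for *Sema3b*, *Sema3f*, *Slit1*, *Plxna1*, *Plxna4*, *Ntn1*, *Unc5d*, *Sema6a*, *Efnb3* and *Dcc*.

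Among the 11 plexins and neuropilins, 2 rose and none fell, and the median log2 fold change of the group was -0.066 with TMM and 0.080 with cyclic loess. *Nrp2*, the co-receptor preferred by *Sema3f* and also used by *Sema3c*, had 6.79, 5.996 and 4.37 CPM in the controls and 26.8, 18.8, 11.2 and 16.4 CPM in the libraries labelled Sox9. All libraries labelled Sox9 exceeded all controls, and Sox9 replicate 1 was highest and replicate 3 lowest of them, as they were for *Sema3e*. Summed oligodendrocyte precursor markers were also highest in Sox9 replicate 1 (27.7 CPM) and lowest in replicate 3 (9.73 CPM). So were interneuron markers (12.8 and 7.94 CPM) and radial glia markers (403 and 263 CPM), the latter below all controls. The part of these markers in the rise of either gene was not tested. The log2 fold change of 1.67 ± 0.29 (SE, edgeR adjusted p = 0.00135) remained called with cyclic loess (1.58, adjusted p = 0.00345). *Nrp1* had 886, 946 and 1091 CPM in the controls and 541, 913, 998 and 727 CPM in the libraries labelled Sox9, with overlapping groups and a log2 fold change of -0.29 (edgeR adjusted p = 0.195).

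*Plxnb3*, a plexin known from oligodendrocyte lineage cells and as a receptor of *Sema5a*, was scarce, with 1, 2 and 0 counts in the controls and 13, 14, 27 and 5 counts in the libraries labelled Sox9. Sox9 replicate 3 was highest, at 3.02 CPM, whereas summed oligodendrocyte precursor markers were lowest in that replicate (9.73 CPM). The controls summed to 3 counts and the libraries labelled Sox9 to 59. The ratio of CPM was 19.8, with an exact 95% interval of 6.46 to 98.8 that covers counting error only. Its log2 fold change of 4.10 ± 0.75 (SE, edgeR adjusted p = 0.00167) lost the call with cyclic loess (1.03, adjusted p = 0.160). *Plxna4*, a receptor of *Sema3a* and class 6 semaphorins, had 95.5, 89.9 and 94.5 CPM in the controls and 49.9, 70.8, 82.9 and 55.8 CPM in the libraries labelled Sox9. All controls were above all libraries labelled Sox9, yet the log2 fold change of -0.52 (edgeR adjusted p = 0.0226) missed the threshold, and it was called by DESeq2 (adjusted p = 0.00628), with no filter on low counts (0.00138) and without Sox9 replicate 3 (adjusted p = 0.00903). *Plxnd1*, the receptor of *Sema3e*, lay at 2.91 ± 0.884 CPM (SD, n = 3) in the controls and 2.82 ± 2.51 CPM (SD, n = 4) in the libraries labelled Sox9, with a log2 fold change of -0.047 (edgeR adjusted p = 0.957). In this gene Sox9 replicate 1 held 6.46 CPM and the other three libraries of its group held 0.894 to 2.46 CPM, so the values overlapped widely. Over the 9 members of this group that were not called, log2 fold changes ran from that of *Plxna4* to 0.39 for *Plxnc1*, the receptor of *Sema7a*.

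**Figure D3:**
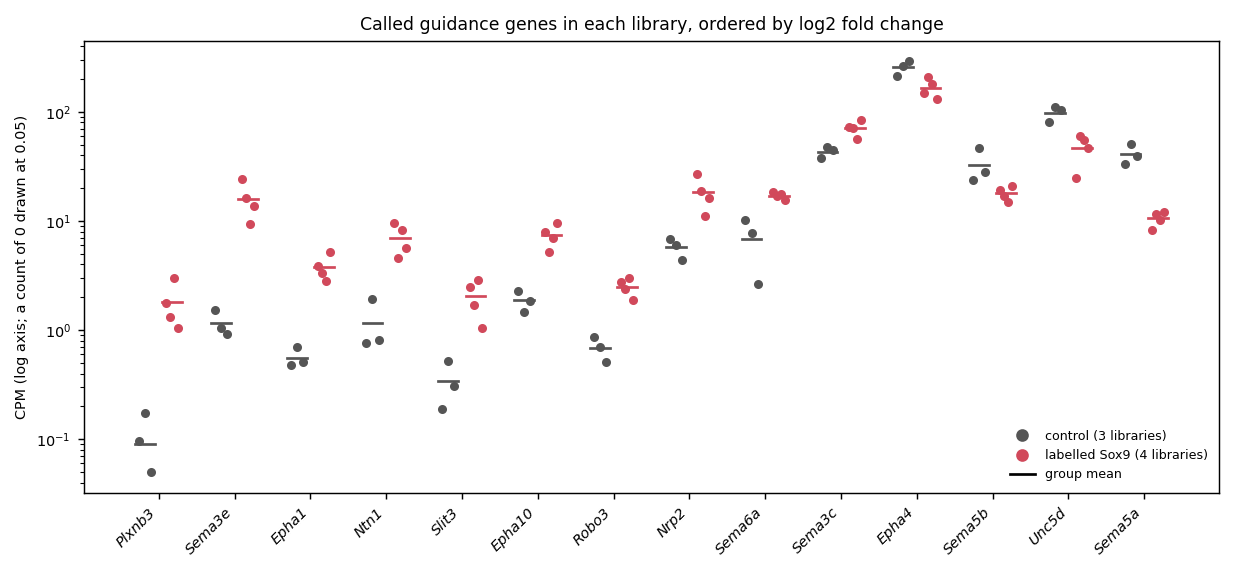
CPM of the 14 called guidance genes in each library on a log axis, ordered by log2 fold change from the highest on the left; points are libraries, horizontal lines group means, and a count of 0 is drawn at the bottom edge. The groups do not overlap for any of these genes, which include *Sema3e* at 0.915 to 1.53 CPM in controls and 9.28 to 24.2 CPM in libraries labelled Sox9.

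Among the 12 Eph receptors tested, 2 rose and 1 fell, all of them EphA receptors. *Epha4*, which binds ephrins of both classes and is known from cortical neuron migration and corticospinal axon guidance, was the most abundant called gene, with 213, 265 and 290.2 CPM in the controls and 147, 208, 179.8 and 132 CPM in the libraries labelled Sox9. The lowest control exceeded the highest library labelled Sox9 by a small margin, and the log2 fold change of -0.61 ± 0.15 (SE, edgeR adjusted p = 0.00904) lost the call without Sox9 replicate 1, 3 or 4 or control replicate 2 or 4, with adjusted p between 0.0187 and 0.0545. *Epha10*, a receptor with no active kinase, had 2.29, 1.48 and 1.83 CPM in the controls and 7.97, 5.197, 7.04 and 9.65 CPM in the libraries labelled Sox9. The groups were well apart (log2 fold change 1.98, SE 0.35, edgeR adjusted p = 0.00134) and stayed called with cyclic loess (1.41, adjusted p = 0.00924). *Epha1*, the founding Eph receptor, had 0.478, 0.695 and 0.509 CPM in the controls and 3.85, 3.31, 2.79 and 5.24 CPM in the libraries labelled Sox9. The groups were apart, and the log2 fold change of 2.70 ± 0.46 (SE, edgeR adjusted p = 0.00107) lost the call with cyclic loess (1.34, adjusted p = 0.0325). Exons of *Epha1* and *Zyx* overlap by 236 bases on opposite strands, which is 6.0% of the exonic length of *Epha1*, and reads of both cannot be told apart without strand. *Zyx* itself stood at 8.38 ± 3.20 CPM (SD, n = 3) in the controls and 6.39 ± 0.6198 CPM (SD, n = 4) in the libraries labelled Sox9 (log2 fold change -0.39, edgeR adjusted p = 0.318). Exons of *Epha10* overlap an antisense gene, 1700125G02Rik, by 79 bases, or 1.1% of the exonic length of *Epha10*.

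*Epha3*, the most abundant Eph receptor, had 385, 469.9 and 322 CPM in the controls and 255, 317, 308 and 282 CPM in the libraries labelled Sox9. It was lower in all libraries labelled Sox9, but its log2 fold change of -0.43 (edgeR adjusted p = 0.0234) missed the threshold, and it was called by DESeq2 (adjusted p = 0.00741) and with no filter on low counts (0.00184). Of the 5 EphB receptors, 0 were called by edgeR, 0 by DESeq2 and 0 with cyclic loess, against 14.7%, 19.4% and 3.92% of all genes. Of all genes 44.0% had an unadjusted p under 0.05, as did 2 of these receptors. Their most abundant member, *Ephb2*, had 71.5 ± 6.402 CPM (SD, n = 3) in the controls and 70.6 ± 11.7 CPM (SD, n = 4) in the libraries labelled Sox9. *Ephb4*, known from blood vessels, had 1.82, 3.39 and 4.68 CPM in the controls and 7.005, 6.05, 6.26 and 5.87 CPM in the libraries labelled Sox9, and its log2 fold change of 0.94 (edgeR adjusted p = 0.0484) missed the threshold. The 9 Eph receptors that were not called had log2 fold changes from -0.58 for *Ephb6*, which lacks kinase activity, to 1.93 for *Epha6*, which was -0.38 with cyclic loess.

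None of the 8 ephrins was called. The count was 0 with edgeR, 0 with DESeq2 and 0 with cyclic loess, against 14.7%, 19.4% and 3.92% of all genes. An unadjusted p under 0.05 was found for 0 ephrins and for 44.0% of all genes. The smallest p among the ephrins was that of *Efna3*, a ligand anchored by a lipid, with 4.59, 2.26 and 2.95 CPM in the controls and 4.81, 3.69, 3.801 and 5.66 CPM in the libraries labelled Sox9 and a log2 fold change of 0.44 ± 0.36 (SE, edgeR adjusted p = 0.361) that was -0.029 with cyclic loess. *Efna1* followed, with 5.83, 4.87 and 4.88 CPM in the controls and 6.32, 6.24, 7.15 and 6.29 CPM in the libraries labelled Sox9 and a log2 fold change of 0.32 ± 0.27 (SE, edgeR adjusted p = 0.3699). *Efnb2*, the most abundant ligand, had 156 ± 31.3 CPM (SD, n = 3) in the controls and 139 ± 25.2 CPM (SD, n = 4) in the libraries labelled Sox9, with a log2 fold change of -0.17 (edgeR adjusted p = 0.439), 0.073 with cyclic loess and 0.012 without control replicate 2. *Efna1*, *Efna3* and *Efna4* lie close together on the minus strand of chromosome 3, at 89271733 to 89338028 (GRCm38). Exons of antisense genes overlap 14.1% of the exonic length of *Efna3* and 10.5% of that of *Efna4*.

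Slits and their receptors held 2 called genes of 6 tested, both higher, against 4 by DESeq2 and 0 with cyclic loess. *Slit3*, a secreted repellent, was at 2, 6 and 3 counts in the controls and 18, 18, 26 and 5 counts in the libraries labelled Sox9. These were 0.339 ± 0.168 CPM (SD, n = 3) in the controls and 2.03 ± 0.824 CPM (SD, n = 4) in the libraries labelled Sox9. The log2 fold change of 2.54 ± 0.57 (SE, edgeR adjusted p = 0.00502) fell to 0.60 with cyclic loess (adjusted p = 0.397), and leaving out Sox9 replicate 1 or 3 or any one control ended the call (adjusted p between 0.0109 and 0.0228). *Slit1* had 0.669, 0.261 and 1.63 CPM in the controls and 4.81, 2.83, 3.58 and 2.31 CPM in the libraries labelled Sox9, with a log2 fold change of 2.01 (edgeR adjusted p = 0.0128). It was called without control replicate 4 (adjusted p = 0.00483), by DESeq2 (0.00492) and with no filter on low counts (0.00201), and its log2 fold change was 0.91 with cyclic loess (adjusted p = 0.187). *Slit2* had 7.65, 6.26 and 4.48 CPM in the controls and 10.99, 8.599, 13.8 and 15.7 CPM in the libraries labelled Sox9, with a log2 fold change of 0.99 (edgeR adjusted p = 0.0162) and a call by DESeq2 (adjusted p = 0.00979). All 3 Slits were higher in every library labelled Sox9 than in any control, as were 22.9% of all genes, and their median log2 fold change was 2.01 with TMM and 0.89 with cyclic loess. *Slit1* and *Slit3* had an average log2 CPM under 3, where the median log2 fold change of all genes was 1.10 with TMM.

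*Robo3*, the Robo known from the crossing of commissural axons at the midline, had 0.8602, 0.695 and 0.509 CPM in the controls and 2.75, 2.36, 3.02 and 1.89 CPM in the libraries labelled Sox9. The groups were apart, but with at most 9 counts in any control the call at a log2 fold change of 1.85 ± 0.45 (SE, edgeR adjusted p = 0.00774) was lost in 6 of the 7 fits that left out a library, all except that without Sox9 replicate 4 (adjusted p between 0.0105 and 0.0276), and with cyclic loess (0.48, adjusted p = 0.429). *Robo2*, the most abundant receptor of Slits here, had 394, 439.8 and 498 CPM in the controls and 300.2, 396, 457 and 343 CPM in the libraries labelled Sox9, with a log2 fold change of -0.25 (edgeR adjusted p = 0.191) that was 0.0063 with cyclic loess. *Robo1* had 90.5 ± 28.3 CPM (SD, n = 3) in the controls and 71.6 ± 28.3 CPM (SD, n = 4) in the libraries labelled Sox9, with a log2 fold change of -0.33 (edgeR adjusted p = 0.3397). *Robo4*, a receptor of endothelial cells, did not pass the filter.

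Netrins and their receptors had 1 gene higher and 1 lower among 7 tested. *Ntn1*, the secreted cue that attracts axons through *Dcc*, had 0.765, 1.91 and 0.814 CPM in the controls and 9.48, 4.54, 8.27 and 5.66 CPM in the libraries labelled Sox9. All libraries labelled Sox9 were above the highest control, replicate 2, and the log2 fold change of 2.56 ± 0.43 (SE, edgeR adjusted p = 0.00108) remained called with cyclic loess (1.80, adjusted p = 0.00861). *Unc5d*, a netrin receptor family member known from the subventricular zone and from migrating multipolar neurons, had 80.1, 111 and 104 CPM in the controls and 24.9, 59.6, 54.7 and 46.3 CPM in the libraries labelled Sox9. Sox9 replicate 1 was lowest and every control exceeded every library labelled Sox9. The log2 fold change of -1.08 ± 0.22 (SE, edgeR adjusted p = 0.00333) lost the call without Sox9 replicate 4 (adjusted p = 0.0125), control replicate 2 (0.0153) or control replicate 4 (0.0132), and with cyclic loess (-0.92, adjusted p = 0.0299).

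*Unc5c*, another repulsive netrin receptor, had 8.12, 6.95 and 11.6 CPM in the controls and 19.6, 12.9, 16.2 and 20.97 CPM in the libraries labelled Sox9. It was higher in every library labelled Sox9, and its log2 fold change of 0.96 ± 0.25 (SE, edgeR adjusted p = 0.0101) fell just outside the threshold, with a call by DESeq2 (adjusted p = 0.00401), with no filter on low counts (0.004704), with at least 10 counts in every library (0.00964), without Sox9 replicate 2 (0.00816) and without control replicate 4 (0.00712). *Dcc* itself had 38.8 ± 4.64 CPM (SD, n = 3) in the controls and 36.8 ± 5.56 CPM (SD, n = 4) in the libraries labelled Sox9, with a log2 fold change of -0.067 (edgeR adjusted p = 0.781), and 0.12 with cyclic loess. *Unc5a*, *Unc5b* and *Ntn4* were not called either, at 11.1 CPM or less in every library. At the threshold itself, *Epha4*, *Sema6a* and *Sema5b* lay just inside (adjusted p between 0.00904 and 0.00976) and *Unc5c*, *Slit1* and *Slit2* just outside (0.0101 to 0.0162).

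Of the 6 members that did not pass the filter, *Epha2* had 2 counts in all controls and 18 in the libraries labelled Sox9, a ratio of CPM of 9.06 with an exact 95% interval of 2.17 to 80.6. *Ntn5* had 1 and 15 counts, a ratio of 15.1 with an interval of 2.32 to 636, and 519 bases (23.4%) of its exonic length overlap exons of *Sec1* on the opposite strand, whose reads cannot be told apart from its own. These intervals cover counting error only. *Epha8* had 4 counts in all controls and 29 in the libraries labelled Sox9, *Sema3g* 4 and 14, *Sema3b* 6 and 6 and *Robo4* 14 and 16. All were at 1.79 CPM or less in every library.

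The calls were also set beside those of other genes at the same level. Among 26 guidance genes with an average log2 CPM under 3, 6 were called higher and 0 lower (*Plxnb3*, *Epha1*, *Ntn1*, *Slit3*, *Epha10* and *Robo3*), or 23.1%, against 22.5% of all 7584 genes at that level, of which 21.8% were higher and 0.62% lower. Scarce guidance genes therefore were called about as often as other scarce genes. Of the 6, *Plxnb3*, *Epha1*, *Slit3* and *Robo3* held 9 counts or fewer in each control, and *Ntn1* held 8 in control replicates 1 and 4. These passed the filter on low counts only through the libraries labelled Sox9, and a gene that passes in this way can hardly be called lower. Between 3 and 6, 4 of 19 were higher (*Sema3e*, *Nrp2*, *Sema6a* and *Sema3c*) and 2 lower (*Sema5a* and *Sema5b*), or 31.6%, against 7.83% of 5770 genes (3.24% higher and 4.59% lower). At 6 or more, 2 of 17 were lower (*Unc5d* and *Epha4*) and 0 higher, or 11.8%, against 8.65% of 3168 genes (0.6% higher and 8.05% lower). The median log2 fold change of all genes was 1.10 in the lowest class, -0.14 in the middle and -0.26 in the highest. After cyclic loess these medians were -0.052, -0.0052 and -0.018, and 22 of the 62 guidance genes changed sign, none of them called.

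**Figure D4:**
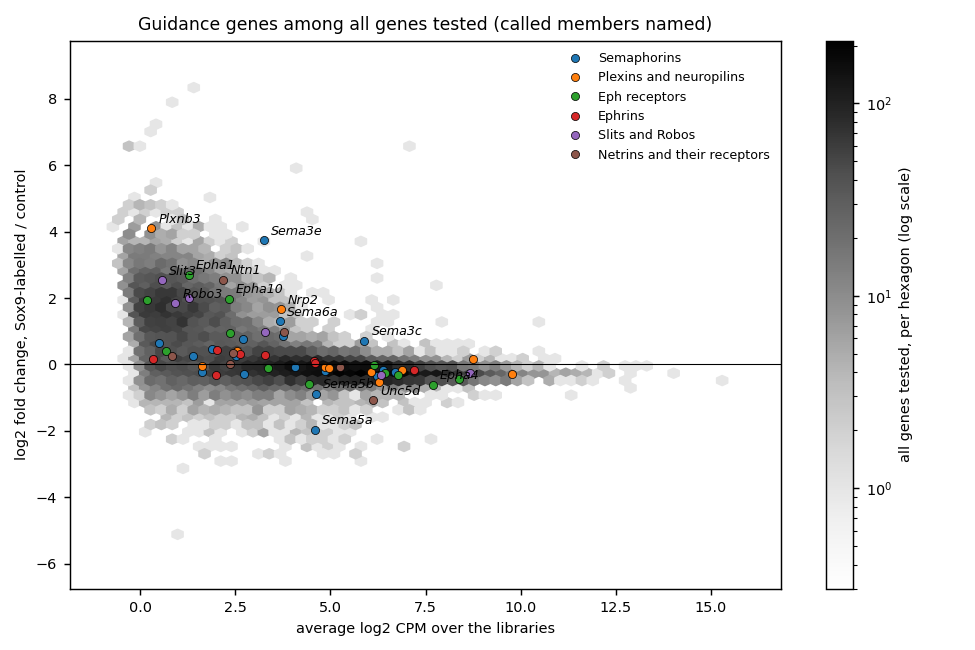
Log2 fold change against average log2 CPM over the libraries, with grey hexagons for all 16522 genes tested (shade by number of genes, log scale) and coloured points for the guidance genes. Called members are named, with *Sema3e* (3.75) and *Sema5a* (-1.97) at the edge of the cloud at their level and *Slit3*, *Robo3* and *Epha1* within the mass of scarce genes above 0.

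**Figure D5:**
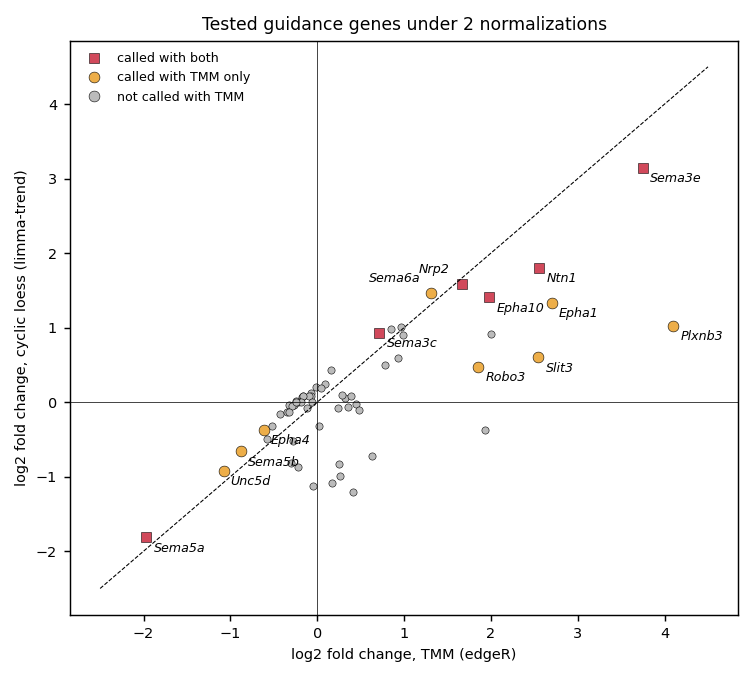
Log2 fold change of the 62 tested guidance genes with TMM (horizontal axis) and with cyclic loess (vertical axis), with a dashed line of equal values. The 6 red squares were called with both, the orange points with TMM alone, and *Plxnb3* shows the widest gap among called genes, at 4.10 and 1.03.

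Other genes of the guidance pathways were taken as a list of 71 genes, the intracellular relays of these receptors and further cues and receptors, of which 68 were tested and *Rras*, *Ngef* and *Ntng1* were not. Of these, 4 rose and 2 fell (8.82%, against 14.7% of all genes), and their median log2 fold change was -0.024. *Mical2*, of the MICAL oxidoreductases through which plexins disassemble actin, had 3.82, 2.35 and 3.76 CPM in the controls and 15.8, 9.92, 13.2 and 14.3 CPM in the libraries labelled Sox9. The groups were well apart (log2 fold change 2.00, SE 0.28, edgeR adjusted p = 0.000348). *Dscaml1*, a cell adhesion molecule of the DSCAM family, had 8.73 ± 1.22 CPM (SD, n = 3) in the controls and 18.1 ± 2.14 CPM (SD, n = 4) in the libraries labelled Sox9, with a log2 fold change of 1.05 (edgeR adjusted p = 0.00285). *Arhgap39*, a GTPase activating protein that works with Robo, had 8.86 ± 1.82 CPM (SD, n = 3) in the controls and 17.5 ± 3.899 CPM (SD, n = 4) in the libraries labelled Sox9, with a log2 fold change of 0.98 (edgeR adjusted p = 0.00823). *Plxdc1*, a plexin domain protein, had 1.098 ± 0.705 CPM (SD, n = 3) in the controls and 3.98 ± 0.718 CPM (SD, n = 4) in the libraries labelled Sox9, with a log2 fold change of 1.82 (edgeR adjusted p = 0.00867).

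Those that fell were *Dpysl4*, of the CRMP proteins that relay *Sema3a* signals, with 58.97, 45.01 and 43.9 CPM in the controls and 26.2, 35.7, 23.1 and 20.8 CPM in the libraries labelled Sox9 (log2 fold change -0.89, SE 0.19, edgeR adjusted p = 0.00402), and *Srgap1*, a GTPase activating protein that binds Robo, with 62.5, 55.7 and 49.2 CPM in the controls and 35.2, 43.2, 37.9 and 33.3 CPM in the libraries labelled Sox9 (log2 fold change -0.57, SE 0.15, edgeR adjusted p = 0.00991). All 6 were separated between the groups, but 5 lost the call when a library was left out. For *Dscaml1* this was control replicate 4 (adjusted p = 0.0117). For *Arhgap39* it was Sox9 replicate 1, 3 or 4 or control replicate 1 or 2 (adjusted p up to 0.0320), and for *Dpysl4* Sox9 replicate 1, 3 or 4 or control replicate 1 (up to 0.0175). *Plxdc1* lost it without any one library other than control replicate 2 (up to 0.0333) and *Srgap1* without any one of the 7 (up to 0.0398). Just outside the threshold were *Chl1* (log2 fold change 0.56, SE 0.15, edgeR adjusted p = 0.0128), *Cxcl12* (log2 fold change -0.90, SE 0.24, edgeR adjusted p = 0.01296), *Rasa1* (log2 fold change -0.42, SE 0.12, edgeR adjusted p = 0.0152) and *Trim67* (log2 fold change -0.50, SE 0.14, edgeR adjusted p = 0.0174). All 4 were called with no filter on low counts (adjusted p up to 0.009196), and *Cxcl12*, *Rasa1* and *Trim67* by DESeq2 (adjusted p of 0.00155, 0.00323 and 0.00266). *Chl1* was called with cyclic loess (adjusted p = 0.00327) and with at least 10 counts in every library (0.00537). Without Sox9 replicate 4, and with the replicate block by descriptions, *Chl1* (adjusted p of 0.00282 and 0.005103) and *Cxcl12* (0.003215 and 0.00335) were called.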

How the data were processed

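The 7 RNA-Seq libraries of High RFP cells, 3 control and 4 labelled Sox9, were grouped by the sample titles. Whether libraries are separate litters is not labelled for each, so p-values measure the spread between these libraries. The submitters' processing notes name bcl2fastq 2.17.1.14 and STAR 2.5.2b, and the methods give alignment to mm10. The authors deposited unnormalized counts for each Ensembl gene. The counting program and its use of strand and introns are not given in the sources used here, and the library kit does not mark strand. The authors also deposited FPKM values, which were used only to check lengths. For 91.8% of 6894 genes the length linking counts and FPKM was within 2% of the gene span, and for 1.8% within 2% of the exonic length, so levels here use counts and the exonic length of GENCODE annotation.

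The test was that of edgeR 4.0.16 under R 4.3.3 (TMM, filterByExpr defaults, quasi-likelihood test, two-sided, no covariate), with Benjamini-Hochberg adjustment over all 16522 genes tested. Genes with an adjusted p under 0.01, the cutoff of the study's methods, are called higher or lower. Standard errors of log2 fold changes were derived from the F statistics. Steps were tested on simulated data. Intervals and floors cover counting error only, and depth is given as counts on genes. The members and lists were chosen with earlier results of these data known. Genes named are *Sox9*, every called member, the 10 members with the highest level per exonic kilobase, the 3 of each family with the smallest p, members that were not tested, and the 5 pathway genes with the smallest p in each direction. *Sema3a*, *Sema3d*, *Sema4c*, *Sema6d*, *Plxnc1*, *Plxnd1*, *Epha6*, *Ephb2*, *Ephb4*, *Ephb6*, *Efna4*, *Slit2*, *Robo1*, *Dcc*, *Unc5a*, *Unc5b*, *Ntn4*, *Zyx* and *Sec1* were named after their values were seen. Alternatives were DESeq2 1.42.0, its size factors in edgeR, cyclic loess with limma-trend (limma 3.58.1), at least 10 counts in every library, no filter at all, an adjusted p under 0.05, a replicate block and leaving out each library. Summaries used Python 3.11.15, pandas 2.3.3 and scipy 1.17.1, and plots matplotlib 3.10.9.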

Additional observations from a re-analysis of the deposited data

Results flagged for a closer look

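In 28 groups of 4 libraries checked, 1 library stood apart from its group by the ratio of its gap to the whole range. *Efna1* was 7.155 CPM in Sox9 replicate 3, with a gap of 0.911 of the range, above Dixon's critical value for 4 samples, and the group's median was 6.30 CPM. Chance flags about 1 in 20 groups.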

How the results depend on the processing

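Of 562 values of 38 genes under the alternatives, 424 kept their direction and side of the threshold, 98 were no longer called, 34 became called and 6 turned direction. The 38 are the tested members and pathway genes named by rule, without those named after their values were seen. Of the 38, those that turned, none of them called, were with cyclic loess *Efna3* (-0.029), *Efnb2* (0.073), *Plxna3* (0.078), *Robo2* (0.0063) and *Sema4b* (0.079), and *Efnb2* over the fits without 1 library (-0.27 to 0.012, the latter without control replicate 2). Genes outside the 38 also turned with cyclic loess, among them *Sema3a*, *Sema3d*, *Epha6*, *Ephb2* and *Dcc*. Against 10 guidance genes higher, 4 lower and a median of 0.070, cyclic loess gave 5, 1 and 0.0065, at least 10 counts in every library gave 5 and 1 (with 49 members tested, against 7.29% of all genes), and an adjusted p under 0.05 gave 16 higher and 6 lower (against 21.9% and 10.8% of all genes). DESeq2 gave 13 higher, 6 lower and a median of 0.0115. Called genes that were no longer called included, with cyclic loess, *Sema6a* (adjusted p = 0.0180), *Epha4* (0.131) and *Sema5b* (0.0783), with at least 10 counts *Epha4* (0.0616), *Sema5b* (0.0443) and *Unc5d* (0.0127), and with no filter *Robo3* (0.0103). For the 71 pathway genes, against 4 higher, 2 lower and a median of -0.024, DESeq2 gave 5 lower and -0.10, at least 10 counts 0 lower and 0.0995, cyclic loess 3 higher, 0 lower and 0.11, no filter 5 lower and -0.11, and an adjusted p under 0.05 gave 8 higher and 6 lower. With cyclic loess 2 of the 4 higher calls were kept, those of *Arhgap39* and *Plxdc1* ended and *Chl1* was called. Leaving out 1 library gave 7 to 10 guidance genes higher and 1 to 4 lower (2 without Sox9 replicate 1, and 1 without Sox9 replicate 4, control replicate 2 or control replicate 4), against 5.97% to 12.5% of all genes in either direction, with medians of 0.048 to 0.12, and 2 to 3 pathway genes higher and 0 to 1 lower with medians of -0.075 to 0.063. Gene span in place of exonic length kept 6 of the 10 highest levels. The cause of these shifts was not tested.

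Libraries sharing a number did not deviate together (correlations of -0.036, 0.118 and -0.005 by title and -0.036, 0.118 and 0.017 by description), and 2 of 6 libraries were most like that of their own title number. With the replicate block by titles, 5 guidance genes were higher and 2 lower (against 3.74% of all genes), and 2 and 0 pathway genes. Calls that ended under it were those of *Ntn1*, *Plxnb3*, *Slit3*, *Robo3*, *Sema6a*, *Sema5b* and *Epha4*. With the block by descriptions these were 6 and 2 (against 8.39%), and 2 and 1, and the calls of *Sema3c*, *Slit3*, *Robo3*, *Sema6a*, *Sema5b* and *Epha4* ended. Depth limits the scarce genes most, since a gene at 1 CPM has under 5 counts in the shallowest library.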
